A study of Mus musculus with 3 samples.

Results

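Neutrophil-marked barcodes are droplets of mouse heart macrophage libraries whose RNA carried the neutrophil genes S100a8 and S100a9. A barcode tags the RNA of 1 droplet, and the word is kept here in place of cell because most members carried genes of neutrophils and of macrophages together. A barcode was taken when it held 1000 UMIs or more (unique molecular identifiers, each standing for 1 captured transcript), 200 genes or more and no more than 10% of UMIs of mitochondrial genes. It also needed 0.3% or more of its UMIs from S100a8 and S100a9 together, and at least 1 UMI of Retnlg, Cxcr2, Csf3r or Il1r2. The rule found 397 of the 10171 barcodes past the quality limits, 256 in the Western diet (WD) library, 9 in the high fat diet (HFD) library and 132 in the control diet (CD) library. They were split at 0.3% of UMIs from C1qa, C1qb and C1qc, the chains of the complement protein C1q, into 301 C1q-high and 96 C1q-low barcodes. The members were chosen by, and split on, the measured levels of these 9 genes, which are therefore given as a description. Since cells of 1 library are not replicates, no comparison of gene levels below carries a test. A further 9 barcodes (0 WD, 5 HFD and 4 CD) had enough S100a8 and S100a9 but none of the other neutrophil genes of the rule, and were left out.

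Hearts were taken from wild type mice on WD, HFD or CD at an age of 32 to 34 weeks. Each diet has 1 library, so differences between diets are without replicates. Cells positive for CD45 (a surface protein of all leukocytes), F4/80 (a macrophage protein) and CD11b (an integrin chain of myeloid cells, neutrophils included) were sorted after collagenase digestion. The labels name the 10x Genomics 3′ v2 kit, but most barcode sequences of WD are not among those listed for CD and HFD. Per the labels, doublets and dead cells were gated out. How many mice stand behind a library, whether they were pooled, and what the diets held and how long they were fed are not stated in the labels.

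Neutrophils are short-lived leukocytes that leave the bone marrow with their granules already filled, patrol the blood and enter inflamed tissue along chemokines that their receptor Cxcr2 binds. S100a8 and S100a9 form calprotectin, the most abundant protein of their cytosol, while C1q is made in tissues mainly by resident macrophages, which also take up dying cells such as aged neutrophils (efferocytosis). Mature neutrophils hold little RNA for a leukocyte, do not express C1q or the macrophage receptor Csf1r, and carry CD11b but little F4/80.

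The WD library held 79269380 UMIs, the HFD library 16630481 and the CD library 17464149, and the 3 contributed 4775, 2717 and 2679 barcodes past the limits. The WD counts were written by another software version than the others and the WD library is deeper, so levels are compared within a library, and values of different libraries stand side by side. All 737280 barcodes listed for HFD were also listed for CD, against 92 of the 6885 listed for WD (1.34%). WD thus drew on another barcode set, and its kit may not be the one named. Of the barcodes past the limits, WD shared 1 sequence with CD, HFD shared 15 with CD, and WD and HFD shared none. No member barcode was shared between libraries. Levels are UMIs summed over a class of barcodes, as counts per 1e6 UMIs of that class (CPM), and intervals are 95% intervals that cover counting error only. Barcodes of 1 library share their preparation and are not replicates. A class with 0 UMIs of a gene was given the level of 3 UMIs over the whole class, which is 0.609 CPM in WD C1q-high, 4.70 CPM in WD C1q-low, 3.59 CPM in CD C1q-high and 111 CPM in CD C1q-low. The last class holds only 27004 UMIs, against 835641 in CD C1q-high, 4922675 in WD C1q-high and 638315 in WD C1q-low, so low genes cannot be seen in it.

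Neutrophil-marked barcodes made up 5.36% (4.74 to 6.04) of the WD barcodes, 0.331% (0.152 to 0.628) of HFD and 4.93% (4.14 to 5.82) of CD. The C1q-high class held 170 of 256 members in WD, or 66.4% (60.3 to 72.2), 8 of 9 in HFD, or 88.9% (51.8 to 99.7), and 123 of 132 in CD, or 93.2% (87.5 to 96.8). C1q-low barcodes were 1.80% (1.44 to 2.22) of WD, 0.0368% (0.000932 to 0.205) of HFD and 0.336% (0.154 to 0.637) of CD barcodes. Under this rule the WD and CD libraries thus held similar shares of neutrophil-marked barcodes, and C1q-low ones were a larger part of them in WD. The similarity did not hold at equal depth. With the rule applied at 1000 UMIs per barcode, the shares were 4.84% of WD and 3.02% of CD. With 2 of the 4 further genes required, they were 5.34% and 3.70%. Exact Clopper-Pearson intervals were used for these shares.

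**Figure D1:**
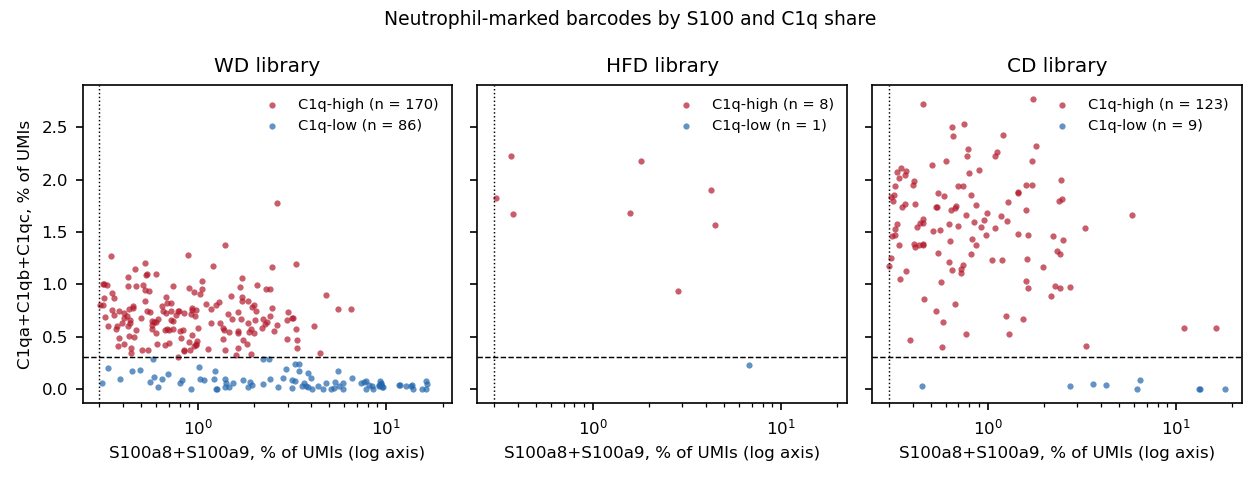
Share of UMIs from S100a8 and S100a9 (log axis) against the share from C1qa, C1qb and C1qc for each neutrophil-marked barcode, 1 point per barcode, C1q-high in red and C1q-low in blue; the dotted and dashed lines mark the 0.3% limits of the rule. The WD panel shows 170 C1q-high and 86 C1q-low points, HFD 8 and 1, and CD 123 and 9.

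The C1q limit fell into a gap of the CD distribution and into a thin stretch of the WD one. The nearest CD members had 0.396% C1q just above it and 0.0814% just below, and the nearest WD members 0.302% and 0.290%. Between 0.3 and 0.4% C1q lay 15 WD members, and between 0.2 and 0.3% lay 6; in CD the counts were 1 and 0. The S100 limit cut a continuous slope instead, with 22 WD and 21 CD barcodes between 0.3 and 0.4% and 38 WD and 13 CD barcodes between 0.2 and 0.3%. S100a8 and S100a9 made up a median of 0.868% of UMIs in WD C1q-high and 3.53% in WD C1q-low. In CD these medians were 0.722% and 6.25%. The other C1q-high barcodes (3547 WD and 2167 CD) were those under the 0.3% S100 limit, and had a median of 0 in both libraries. They were not cut on the 4 further neutrophil genes of the rule, of which their upper quartile had 1 detected in WD and 0 in CD. C1q made up 0.677% in WD C1q-high against 0.809% in the other C1q-high, and 1.57% against 2.21% in CD. Over the members, the 2 shares ran against each other, with Spearman's rho of -0.49 in WD (256 barcodes) and -0.25 in CD (132); both are parts of the same UMI total and both chose the members, so this is a description.

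The 6 neutrophil genes of the rule stood in the order C1q-low, C1q-high, other C1q-high in both libraries. S100a8 (GRCm38 chr3:90668978-90670035, plus strand) had 4321 CPM (4263 to 4379) in WD C1q-high, 14382 CPM (14089 to 14679) in WD C1q-low and 53.8 CPM (51.9 to 55.8) in the other C1q-high. In CD it had 5731 CPM (5569.8 to 5896), 31773 CPM (29682 to 33972) and 55.5 CPM (51.1 to 60.2) in the same order of classes. Its partner S100a9 lies beside it (chr3:90692632-90695721, minus strand) and had 6299.8 CPM in C1q-high, 21148 CPM in C1q-low and 82.4 CPM in the other C1q-high barcodes of WD. In CD, S100a9 had 3019 CPM in C1q-high, 16294 CPM in C1q-low and 29.8 CPM in the other C1q-high barcodes. Retnlg, a resistin-like secreted protein of mouse neutrophils, had 831 CPM in C1q-high, 2795 CPM in C1q-low and 8.48 CPM in the other C1q-high barcodes of WD. In CD, Retnlg had 730.0 CPM in C1q-high, 2666 CPM in C1q-low and 9.58 CPM in the other C1q-high barcodes. Cxcr2 had 115 CPM in C1q-high, 446 CPM in C1q-low and 4.72 CPM in the other C1q-high barcodes of WD. In CD, Cxcr2 had 41.9 CPM in C1q-high, 111 CPM in C1q-low and 1.52 CPM in the other C1q-high barcodes, where the C1q-low value rests on 3 UMIs. Csf3r, the receptor of the growth factor G-CSF, had 481 CPM in C1q-high, 1518 CPM in C1q-low and 67.2 CPM in the other C1q-high barcodes of WD. In CD, Csf3r had 103 CPM in C1q-high, 333 CPM in C1q-low and 13.7 CPM in the other C1q-high barcodes. Il1r2, a decoy receptor that binds interleukin 1, had 781 CPM in C1q-high, 2984 CPM in C1q-low and 68.5 CPM in the other C1q-high barcodes of WD. In CD, Il1r2 had 156 CPM in C1q-high, 370.3 CPM in C1q-low and 4.93 CPM in the other C1q-high barcodes. In the near-empty CD barcodes (10 to 99 UMIs), which show the free RNA of that library, S100a8 had 245 CPM and S100a9 186 CPM, above the other C1q-high barcodes and below both neutrophil-marked classes. The C1q genes were present there too, at 2472 CPM for C1qa, against 5411 CPM in CD C1q-high and 148 CPM in CD C1q-low.

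Beyond the rule, the label was checked against 25 further neutrophil genes and 16 further macrophage genes. The 25 neutrophil genes made up a median of 0.482% of UMIs in WD C1q-high, 2.52% in WD C1q-low and 0.0237% in the other C1q-high, and 0.244%, 1.49% and 0.0194% in the same classes of CD. Of the C1q-high barcodes, 166 of 170 in WD and 109 of 123 in CD lay above the 95th percentile of the other C1q-high barcodes for these genes. The 16 macrophage genes made up a median of 1.69% in WD C1q-high, 0.176% in WD C1q-low and 1.86% in the other C1q-high, and 2.69%, 0.163% and 3.43% in CD. Of the C1q-high barcodes, 8 of 170 in WD and 1 of 123 in CD lay below the 5th percentile of the other C1q-high ones for these macrophage genes. The C1q-high barcodes therefore carried both programs at once, one barcode at a time, while the C1q-low class carried the neutrophil program with little of the macrophage one. The C1q-low class was not neutrophil-like throughout, since 14 of 86 barcodes in WD and 5 of 9 in CD held at least 1% of UMIs from MHC class II genes, so that in CD the name is in doubt for most of the class. Conversely, 34 of 3547 WD and 47 of 2167 CD other C1q-high barcodes reached the lower quartile of the C1q-high members for the 25 genes without meeting the rule.

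Counted per barcode rather than as a share, C1q-high members held as many neutrophil UMIs as C1q-low ones in WD, and at least as many macrophage UMIs as the other C1q-high barcodes in both libraries. In WD a C1q-high barcode held a median of 116.5 UMIs of the 25 neutrophil genes, a C1q-low one 113.5 and another C1q-high one 3. The same barcodes held medians of 410.5, 7 and 236 UMIs of the 16 macrophage genes. In CD the medians were 17, 32 and 1 UMIs of the neutrophil genes, and 172, 4 and 141 UMIs of the macrophage genes. The C1q-low median of neutrophil UMIs was thus above the C1q-high one in CD, where that class has 9 barcodes. S100a8 and S100a9 gave medians of 250, 199 and 0 UMIs in WD and 51, 140 and 0 in CD, and the C1q genes 169, 2 and 104 in WD and 93, 1 and 90 in CD.

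**Figure D2:**
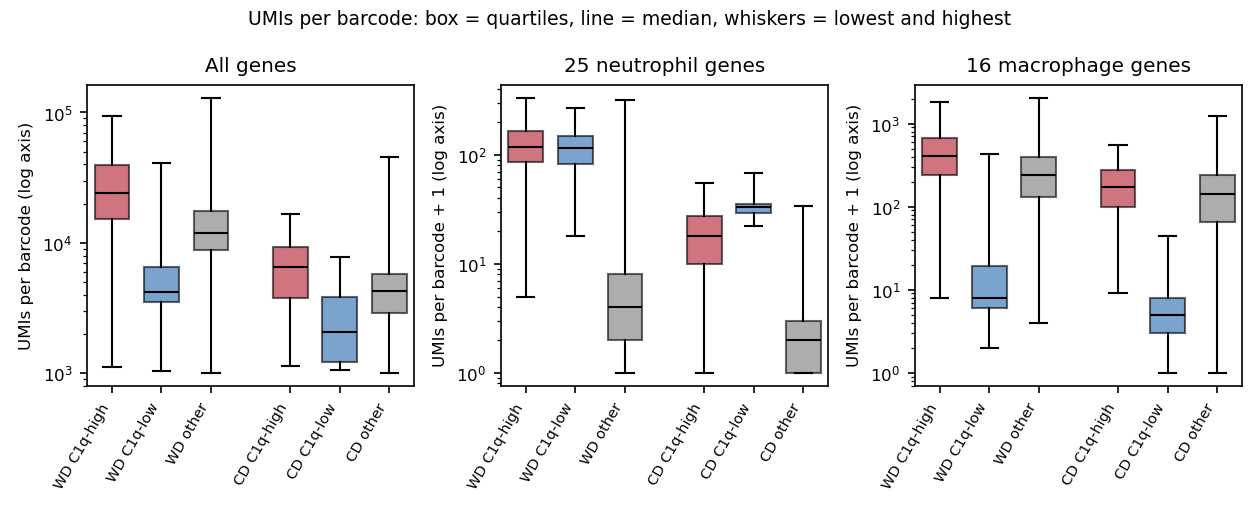
UMIs per barcode (log axes; 1 was added in the middle and right panels) for all genes, 25 neutrophil genes and 16 macrophage genes outside the rule, in C1q-high neutrophil-marked (red), C1q-low neutrophil-marked (blue) and other C1q-high barcodes (grey) of the WD and CD libraries; boxes span the quartiles, the line is the median and whiskers reach the lowest and highest barcode. The medians of all UMIs were 24060, 4225 and 11983 in WD and 6517, 2080 and 4269 in CD.

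The C1q-high members were also the deepest class. Their median was 24060 UMIs in WD, against 4225 in C1q-low and 11983 in the other C1q-high barcodes, and 6517 in CD, against 2080 and 4269. The medians of the C1q-low and the other C1q-high class add up to 16208 UMIs in WD and 6349 in CD. Of the C1q-high members, 155 of 170 in WD and 86 of 123 in CD lay above the median of the other C1q-high barcodes, and 70 and 41 above their 90th percentile. Median genes per barcode were 4788.5, 1444.5 and 3264 in the 3 WD classes and 2110, 854 and 1565 in CD. After every barcode had been thinned to 1000 UMIs, which left out none, the medians were 667.5, 580.5 and 643 genes in WD and 574, 492 and 561 in CD, so that the order of the classes held at equal depth with smaller gaps. Mitochondrially encoded UMIs were a median of 4.27%, 1.27% and 4.43% in WD and 4.03%, 2.98% and 3.61% in CD. The highest scores of a doublet caller fell on 12 of 170 (7.06%) C1q-high, 0 of 86 C1q-low and 156 of 3547 (4.40%) other C1q-high barcodes in WD, and on 3 of 123 (2.44%), 0 of 9 and 31 of 2167 (1.43%) in CD. Depth and doublet scores thus moved with the C1q-high class, and their part in the results was not tested.

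For Hdc and Csf1r, the shares of barcodes with a UMI stood in the order of the levels once every barcode was thinned to 1000 UMIs, and in WD not before. Hdc, which makes histamine, was found in 99.4% of C1q-high, 98.8% of C1q-low and 7.92% of the other C1q-high barcodes of WD, and at 1000 UMIs each in 48.2%, 88.4% and 1.69%. In CD it was found in 56.9% of C1q-high, in 9 of 9 C1q-low and in 1.75% of the other barcodes, and at 1000 UMIs in 20.3%, 77.8% and 0.323%. The Hdc share of the other C1q-high barcodes is not a background, since single barcodes of that class held up to 316 UMIs of the 25 neutrophil genes in WD. Csf1r went the other way, in 99.4%, 39.5% and 98.8% of the WD barcodes, and at 1000 UMIs in 47.6%, 9.30% and 52.2%. In CD the shares were 91.1%, 22.2% and 93.2%, and 53.7%, 11.1% and 59.6% at 1000 UMIs.

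C1q-high and C1q-low members were then compared gene by gene, over genes with at least 20 UMIs in the 2 classes together, and a ratio of at least 2-fold was counted. In WD, 2051 of 10157 genes (20.2%) were higher in C1q-high and 765 (7.53%) lower, and in CD 410 of 4532 (9.05%) higher and 497 (11.0%) lower. A ratio past 2-fold is a description of these barcodes, with no test behind it. With the 95% interval also beyond 1, the shares were 11.2% and 6.58% in WD and 2.49% and 3.51% in CD. All 25 neutrophil genes outside the rule were lower in C1q-high in WD, with a median log2 ratio of -1.74, and all 18 that could be compared in CD, with -1.99. Their summed level was 4490.0 CPM in C1q-high and 15372 CPM in C1q-low of WD, a ratio of 0.292, and 2779 and 11554 CPM in CD, a ratio of 0.241. Since the classes were cut on genes of the same barcodes, a lower share of one program goes with a higher share of the other, and nothing more is read from these counts.

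Neutrophils fill primary, secondary and tertiary granules in turn as they mature, and the primary enzymes were at or near 0 here while genes of the later granules were detected. A list not limited to tertiary granules held Mmp8, Mmp9, Cd177, Pglyrp1 and Padi4. All 5 were at least 2-fold lower in WD C1q-high than in C1q-low, where 7.53% of all genes were lower. Of 3 secondary granule genes 2 were lower and 1, Chil3, was higher, where 20.2% of all genes were higher. Chil3 had 50.7% of its C1q-high UMIs in 1 barcode and a log2 ratio of -2.94 with the C1q limit at 0.6%. Lcn2, an iron-binding protein of secondary granules, had 153 CPM in C1q-high, 506 CPM in C1q-low and 1.75 CPM in the other C1q-high barcodes of WD. In CD, Lcn2 had 53.9 CPM in C1q-high, 333 CPM in C1q-low and 0.379 CPM in the other C1q-high barcodes. Mmp8, a collagenase, had 109 CPM in C1q-high, 335 CPM in C1q-low and 2.68 CPM in the other C1q-high barcodes of WD. Mmp9, a gelatinase of tertiary granules, had 81.1 CPM in C1q-high, 241 CPM in C1q-low and 21.7 CPM in the other C1q-high barcodes of WD. In CD, Mmp9 had 86.2 CPM in C1q-high, 370.3 CPM in C1q-low and 33.0 CPM in the other C1q-high barcodes. Ltf, the lactoferrin of secondary granules, reached only 4.06 CPM in C1q-high and 42.3 CPM in C1q-low of WD and 0 UMIs in CD. Elane, Mpo and Ctsg, enzymes of the primary granules that are transcribed in marrow precursors, had 0 UMIs in both neutrophil-marked classes of WD and of CD. Prtn3, a further one, had 1.63 CPM in C1q-high and 3.13 CPM in C1q-low of WD (8 and 2 UMIs). Of the transcription factors of granulocyte precursors, Gfi1 had 0 UMIs in the members of both libraries and Cebpe 6 UMIs in WD C1q-high, 2 in CD C1q-high and 0 in C1q-low. Ly6g, the surface antigen used to sort mouse neutrophils, was near its limit of detection, with 4.47 CPM in C1q-high, 23.5 CPM in C1q-low and 0.0546 CPM in the other C1q-high barcodes of WD (22, 15 and 3 UMIs) and 2, 1 and 0 UMIs in the CD classes.

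Enzymes and surface proteins of neutrophils followed. Hdc had 695 CPM in C1q-high, 2348 CPM in C1q-low and 41.4 CPM in the other C1q-high barcodes of WD. In CD, Hdc had 188 CPM in C1q-high, 852 CPM in C1q-low and 6.26 CPM in the other C1q-high barcodes. Its C1q-high over C1q-low ratios were 0.296 (0.279 to 0.315) in WD and 0.221 (0.142 to 0.358) in CD. G0s2, an inhibitor of fat breakdown, had 332 CPM in C1q-high, 1170.3 CPM in C1q-low and 13.7 CPM in the other C1q-high barcodes of WD. In CD, G0s2 had 315 CPM in C1q-high, 1592 CPM in C1q-low and 12.7 CPM in the other C1q-high barcodes. Acod1, which makes itaconate, had 482 CPM in C1q-high, 1986 CPM in C1q-low and 33.6 CPM in the other C1q-high barcodes of WD. In CD, Acod1 had 63.4 CPM in C1q-high, 222 CPM in C1q-low and 3.70 CPM in the other C1q-high barcodes. These 3 genes kept the same order of classes in each library. Slpi, a secreted protease inhibitor, had 223 CPM in C1q-high, 547 CPM in C1q-low and 16.5 CPM in the other C1q-high barcodes of WD. In CD, Slpi had 492 CPM in C1q-high, 2111 CPM in C1q-low and 12.6 CPM in the other C1q-high barcodes. Of the 16 receptor and adhesion genes, 7 were at least 2-fold lower in WD C1q-high and none higher, where 7.53% of all genes were lower and 20.2% higher. The chemokine receptor Ccr1 was among them, at 149.7 CPM in C1q-high and 457 CPM in C1q-low, while the integrin chain Itgam (the CD11b of the sort) had 257 CPM in C1q-high and 404 CPM in C1q-low. In CD, 6 of 13 were higher and 6 lower, where 9.05% of all genes were higher and 11.0% lower. Among the higher were the Fc receptor Fcgr3, at 841 CPM in C1q-high and 185 CPM in C1q-low, and the complement receptor C5ar1. C5ar1 had 649 CPM in C1q-high and 185 CPM in C1q-low, and both are also macrophage genes. Of the 7 oxidative burst genes, 1 was higher (Hvcn1, 23 and 1 UMIs) in WD, where 20.2% of all genes were. Padi4, which citrullinates histones, had 21.1 CPM in C1q-high and 157 CPM in C1q-low of WD, but 0 UMIs in both classes of CD.

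**Figure D3:**
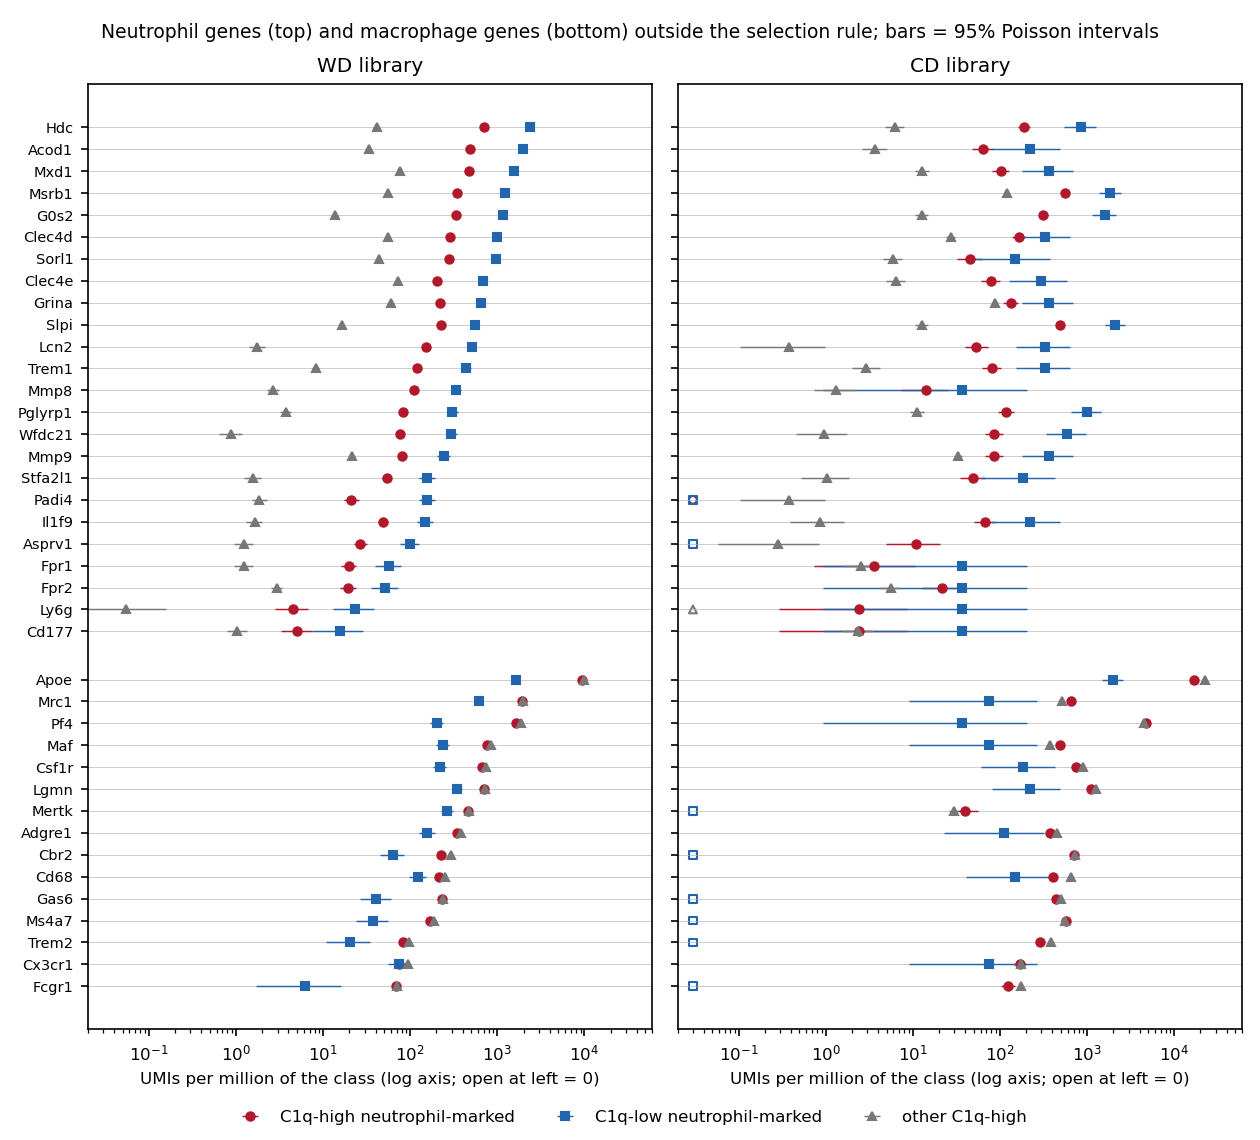
Level (CPM of the class, log axis) of neutrophil genes (upper block) and macrophage genes (lower block) outside the rule in C1q-high neutrophil-marked (red circles), C1q-low neutrophil-marked (blue squares) and other C1q-high barcodes (grey triangles) of the WD and CD libraries; bars are 95% Poisson intervals and open symbols at the left edge have 0 UMIs. For the neutrophil genes of WD the C1q-high points lie between the others, and for the macrophage genes they lie near the other C1q-high barcodes.

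Most macrophage genes outside the rule stood on the C1q-high side. Of the 16 outside the rule, 13 were at least 2-fold higher in C1q-high in WD and 14 in CD, and none was lower, with median log2 ratios of 1.67 and 2.17. Over all genes, 20.2% were higher and 7.53% lower in WD, and 9.05% and 11.0% in CD. These shares also apply to the lists of resident and efferocytosis genes below. Csf1r had 664 CPM in C1q-high and 218 CPM in C1q-low of WD, a ratio of 3.05 (2.57 to 3.64). In CD, Csf1r had 755 CPM in C1q-high and 185 CPM in C1q-low, a ratio of 4.08 (1.74 to 12.6). Mrc1, the mannose receptor, had 1918 CPM in C1q-high and 617 CPM in C1q-low of WD. In CD, Mrc1 had 651 CPM in C1q-high and 74.1 CPM in C1q-low. Adgre1, which encodes the F4/80 of the sort, had 347 CPM in C1q-high and 157 CPM in C1q-low of WD. In CD, Adgre1 had 379 CPM in C1q-high and 111 CPM in C1q-low, where C1q-low held 3 UMIs. Its mRNA was thus lower, though not absent, in the C1q-low class that passed an F4/80 gate, taken as a whole. In WD, the 14 of 86 C1q-low barcodes with at least 1% MHC class II UMIs held 1759 of the 2845 UMIs of the 16 macrophage genes. Ptprc, which encodes CD45, had 959 CPM in C1q-high and 1748 CPM in C1q-low of WD. In CD, Ptprc had 282 CPM in C1q-high and 444 CPM in C1q-low. All 7 genes of resident macrophages were higher in WD C1q-high, among them Lyve1 at 699 CPM in C1q-high and 72.1 CPM in C1q-low and the phosphatidylserine receptor Timd4 at 96.3 CPM in C1q-high and 12.5 CPM in C1q-low. In CD 4 of 7 were higher, and 4 had 0 UMIs in C1q-low. The MHC class II genes H2-Aa, H2-Ab1, H2-Eb1 and Cd74 had C1q-high over C1q-low ratios of 1.25, 1.10, 1.24 and 1.14 in WD. In CD the same genes went the other way, at 0.662, 0.525, 0.514 and 0.486. Of 11 efferocytosis genes compared in WD, 7 were higher, 1 was lower (Cd300lf, a lipid receptor that neutrophils also express, at 122 CPM in C1q-high and 403 CPM in C1q-low), and Mertk had 461 CPM in C1q-high and 266 CPM in C1q-low.

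Inflammatory genes are given as values of single genes. Of 20 compared in WD, 4 were at least 2-fold higher in C1q-high (Cxcl1, Ccl2, Il6 and Il10) and 8 lower, and of 13 in CD none was higher and 7 lower. Over all genes 20.2% were higher and 7.53% lower in WD, so the higher count is at the background, and 9.05% were higher and 11.0% lower in CD. Il1b, interleukin 1 beta, had 2547 CPM in C1q-high, 8018 CPM in C1q-low and 640.2 CPM in the other C1q-high barcodes of WD. In CD, Il1b had 1133 CPM in C1q-high, 5555 CPM in C1q-low and 93.1 CPM in the other C1q-high barcodes. Ptgs2, a prostaglandin-making enzyme, had 244 CPM in C1q-high, 782 CPM in C1q-low and 35.0 CPM in the other C1q-high barcodes of WD. In CD, Ptgs2 had 79.0 CPM in C1q-high, 333 CPM in C1q-low and 4.84 CPM in the other C1q-high barcodes. Osm, a cytokine of the interleukin 6 family, had 192 CPM in C1q-high and 595 CPM in C1q-low of WD, with a ratio of 0.322 (0.285 to 0.363). In CD, Osm had 77.8 CPM in C1q-high and 74.1 CPM in C1q-low, where the interval of the ratio, 0.279 to 8.86, spans both directions. Cxcl2, a Cxcr2 ligand, was lower in C1q-high by less than 2-fold in WD, at 4191 CPM in C1q-high and 5969 CPM in C1q-low, and by more in CD, at 2268 CPM in C1q-high and 6629 CPM in C1q-low. The chemokine Ccl4 had 1165 CPM in C1q-high and 838 CPM in C1q-low of WD. In CD, Ccl4 had 643 CPM in C1q-high and 4814 CPM in C1q-low, where 1 barcode held 56.9% of the C1q-low UMIs and the level without it was 2918 CPM. Of 19 interferon-induced genes, 4 were higher in WD C1q-high, again near the 20.2% of all genes, and 5 were lower. The lower ones included Slfn4 at 122 CPM in C1q-high and 475 CPM in C1q-low, Rsad2 at 85.3 CPM in C1q-high and 280.4 CPM in C1q-low and Isg15 at 141 CPM in C1q-high and 342 CPM in C1q-low. The 4 higher ones were Ifit2, Cxcl10, Gbp5 and Ifi47, and Gbp5 turned to a log2 ratio of -0.61 with the C1q limit at 0.6%. In CD C1q-low, 12 of the interferon list had 0 UMIs, so most of it could not be compared. Of the genes tied to neutrophil survival in tissue, 1 of 9 was higher (Ltc4s) and 2 lower in WD, among them Hif1a, the oxygen-sensing transcription factor, at 162 CPM in C1q-high and 359 CPM in C1q-low. Of 8 in CD, 2 were higher and none lower. Of 6 transcription factors, 1 was lower in WD (Fosl2) and 3 in CD (Fosl2, Cebpb and Cebpd).

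Over all genes, 4525 had 20 UMIs in both libraries, and 144 of them were at least 2-fold higher in C1q-high in both and 117 lower in both; 36 were higher in WD and lower in CD, and 2 the reverse. Ranked by the interval bound nearest to 1 in the library where that bound is smaller, and without the genes of the rule, the first 10 higher genes were Pf4, Folr2, Apoe, Ltc4s, Selenop, Ccl24, Fcgrt, Cd81, F13a1 and Retnla. Pf4, a chemokine of platelets and resident macrophages, had 1631 CPM in C1q-high and 201 CPM in C1q-low of WD, a ratio of 8.14 (6.83 to 9.77). In CD, Pf4 had 4763 CPM in C1q-high and 37.0 CPM in C1q-low, where C1q-low held 1 UMI. Apoe, the lipid carrier of macrophages, had 9348 CPM in C1q-high and 1636 CPM in C1q-low of WD. In CD, Apoe had 16901 CPM in C1q-high and 1999.7 CPM in C1q-low. Folr2, a folate receptor, had a WD ratio of 8.05 (5.74 to 11.7). In CD it was 8.48-fold higher with the 0 UMIs of C1q-low set to 3, and the interval began at 6.88. Ltc4s, which makes leukotriene C4, had a WD ratio of 12.1 (6.55 to 25.3). In CD it was 6.05-fold higher, again with 0 UMIs in C1q-low set to 3, and the interval began at 4.91. The first 10 lower genes were Ifitm1, Wfdc21, G0s2, Pglyrp1, Il1b, S100a11, Hp, Cd209a, Hdc and Arg2. Of these, Cd209a turned round in WD, to a log2 ratio of 3.04, when C1q-low barcodes with at least 1% MHC class II UMIs were left out. Ifitm1, an interferon-induced membrane protein, had ratios of 0.195 (0.176 to 0.215) in WD and 0.143 (0.0861 to 0.249) in CD, and Pglyrp1, a peptidoglycan-binding granule protein, 0.268 (0.225 to 0.320) and 0.118 (0.0768 to 0.189). Hp, haptoglobin, which neutrophils store in granules, had 174 CPM in C1q-high and 572 CPM in C1q-low of WD. In CD, Hp had 136 CPM in C1q-high and 741 CPM in C1q-low. Cd209a, a lectin of monocyte-derived dendritic cells and no neutrophil gene, had 47.9 CPM in C1q-high and 233 CPM in C1q-low of WD. In CD, Cd209a had 95.7 CPM in C1q-high and 518 CPM in C1q-low. Of its UMIs in C1q-low, 1 barcode held 35.6% of the WD and 71.4% of the CD ones.

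Set against the other C1q-high barcodes, the C1q-high members had most neutrophil genes at least 2-fold higher, and every macrophage gene of the list within 2-fold. The 2 classes were cut apart on neutrophil genes and both had to pass the C1q limit, so these comparisons are a description. In WD, 643 of 14217 genes (4.52%) were at least 2-fold higher in the members and 665 (4.68%) lower, and in CD 430 of 10586 (4.06%) higher and 687 (6.49%) lower. With the interval also beyond 1, the shares were 3.64% and 1.15% in WD and 2.47% and 1.9% in CD. All 25 neutrophil genes outside the rule were higher in WD, with a median log2 ratio of 3.84, and 19 of 22 in CD, with 3.42. None of those 16 macrophage genes, the 7 resident genes or the 6 genes of the Ccr2 and MHC class II list was past 2-fold in either library. The summed macrophage genes had 17977 CPM in the members and 19374 CPM in the other C1q-high barcodes of WD, a ratio of 0.928, and 28348 and 34421 CPM in CD, a ratio of 0.824. For the Ccr2 and MHC class II list the ratios of sums were 0.771 in WD and 0.765 in CD.

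In both libraries 121 genes were at least 2-fold higher in the members and 30 lower, of 10546 compared in each, while 10 were higher in WD and lower in CD, and 12 the reverse. The first 10 higher genes by the same ranking were Lcn2, Wfdc21, Stfa2l1, Il1f9, Gm5483, G0s2, Hdc, Ifitm1, Trem1 and Slpi. Lcn2 had ratios of 87.8 (70.9 to 109.7) in WD and 142 (51.8 to 543) in CD, and Wfdc21, a small secreted protein with a protease inhibitor fold, 86.2 (63.7 to 119) and 90.8 (46.7 to 197). Trem1, a receptor that amplifies inflammatory signals in myeloid cells, had ratios of 14.5 (12.8 to 16.4) and 27.3 (17.6 to 43.2). Stfa2l1 and Gm5483 belong to the stefin cluster, whose copies are nearly identical, so the counting could have split reads between them. Outside the neutrophil list, Il1b was 3.98-fold higher in WD (3.90 to 4.06) and 12.2-fold in CD (11.1 to 13.3). The inflammatory list had 6 of 20 genes higher in WD and 8 of 18 in CD, and none lower, where 4.52% and 4.06% of all genes were higher. Osm had ratios of 4.96 (4.59 to 5.36) and 5.09 (3.76 to 6.83). Nlrp3, the sensor of an inflammasome, had 327 CPM in members and 237 CPM in the other C1q-high barcodes of WD, and 96.9 and 19.1 CPM in CD. Of 19 interferon-induced genes, 10 were higher in WD and 4 in CD, and none was lower; Slfn4 had ratios of 7.87 (7.08 to 8.75) and 25.2 (10.8 to 63.8), and Isg15 2.92 (2.68 to 3.18) and 1.15 (0.890 to 1.45). Cd300lf had ratios of 9.37 (8.39 to 10.5) and 8.09 (5.10 to 12.7), and was the 1 efferocytosis gene of 11 past 2-fold in each library.

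The genes lower in the members in both libraries were led by haemoglobin. Hbb-bs had 7.72 CPM in the members and 44.0 CPM in the other C1q-high barcodes of WD, and 16.8 and 289.6 CPM in CD. In the other class, 1 barcode held 79.7% of the WD and 49.4% of the CD UMIs of that gene. Without it the level there was 8.92 CPM in WD and 147 CPM in CD, so the WD difference rests on that barcode. Hba-a1, Hba-a2 and Hbb-bt were lower in the members as well, and reads of these near-identical globin copies cannot be told apart with certainty. Mmp12, the macrophage elastase, had 0.384 (0.329 to 0.446) as its ratio in WD and 0.288 (0.187 to 0.423) in CD, and Fn1, fibronectin, 0.359 (0.309 to 0.416) and 0.419 (0.276 to 0.609). The rest of the first 10, Tubb2b, Jmjd8, Cd34 and Asb2, rest on 12, 9, 4 and 10 UMIs in the WD members and 4, 2, 0 and 4 in the CD members.

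In the members, the marker lists of other cells given here summed to less than the 25 neutrophil and the 16 macrophage genes. The classical monocyte list was the highest of them in WD, and most lists are given for WD only. Of the dendritic cell genes, Cd209a had 233 CPM in C1q-low of WD and 518 CPM in C1q-low of CD. Igkc, an immunoglobulin chain outside the B cell list, had 3.13 CPM in C1q-low of WD and 1592 CPM in C1q-low of CD. Of the eosinophil genes, Prg2 and Epx had 0 UMIs in the members of WD and CD. Siglecf had 2.84 CPM in C1q-high, 6.27 CPM in C1q-low and 0.765 CPM in the other C1q-high barcodes of WD and 0 UMIs in the CD members. The mast cell and basophil list summed to 1.83 CPM in C1q-high and 6.27 CPM in C1q-low of WD, with Cpa3, Ms4a2, Mcpt8 and Fcer1a at 0. The T cell list summed to 11.6 and 6.27 CPM in WD, and 6 of 6 genes had 0 UMIs in CD C1q-low. Cardiomyocyte genes summed to 231 CPM in C1q-high, 338 CPM in C1q-low and 248 CPM in the other C1q-high barcodes of WD, and 121, 37.0 and 187 CPM in CD. The classical monocyte list summed to 405 CPM in C1q-high, 1021 CPM in C1q-low and 214 CPM in the other class of WD, where Hp, a gene that neutrophils share, gave 365 of the 652 UMIs in C1q-low. Ly6c2, the defining monocyte gene, had 28.2 CPM in C1q-high, 56.4 CPM in C1q-low and 18.3 CPM in the other C1q-high barcodes of WD. B cell genes summed to 145, 117 and 116 CPM in the same WD classes, NK cell genes to 29.9, 7.83 and 39.5 CPM, and platelet genes to 19.5, 3.13 and 5.50 CPM. Endothelial genes summed to 31.1, 23.5 and 30.3 CPM, fibroblast genes to 13.6, 20.4 and 26.6 CPM, and mural cell genes to 3.45, 15.7 and 5.39 CPM.

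Scaled to S100a8 and S100a9, the neutrophil genes of C1q-high members matched those of C1q-low members closely in WD and loosely in CD. S100a8 and S100a9 also chose the members and set the other C1q-high barcodes apart, so this is a description. For every 100 UMIs of S100a8 and S100a9, the 25 genes summed to 42.3 UMIs in C1q-high and 43.3 in C1q-low of WD, against 389 in the other C1q-high barcodes, where S100 UMIs are rare. In CD the sums were 31.8, 24.0 and 425. In WD, 23 of 25 genes lay within 1.5-fold between C1q-high and C1q-low, and in CD 10 of the 23 with a UMI in both classes. Per 100 S100 UMIs, Hdc had 6.55 in C1q-high and 6.61 in C1q-low of WD, Mxd1 4.41 and 4.38, G0s2 3.13 and 3.29, and Lcn2 1.44 and 1.42. Padi4 was the farthest in WD, with 0.199 in C1q-high and 0.441 in C1q-low. In CD, Msrb1 had 6.37 in C1q-high and 3.85 in C1q-low, Slpi 5.62 and 4.39, and G0s2 3.60 and 3.31. Farther apart in CD were Clec4d, with 1.87 in C1q-high and 0.693 in C1q-low, and Fpr2, with 0.246 and 0.0770 on 18 and 1 UMIs, while Pglyrp1 ran the other way, with 1.35 and 2.08. The balance within the S100 pair lay close together in the classes of a library and differed between libraries: S100a8 gave 40.7% (40.3 to 41.1) of the pair's UMIs in C1q-high, 40.5% (39.8 to 41.1) in C1q-low and 39.5% (38.4 to 40.6) in the other C1q-high barcodes of WD. In the same classes of CD it gave 65.5% (64.4 to 66.6), 66.1% (63.5 to 68.7) and 65.1% (61.9 to 68.2). Free S100 RNA could be measured in CD and HFD only, where near-empty barcodes are listed.

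**Figure D4:**
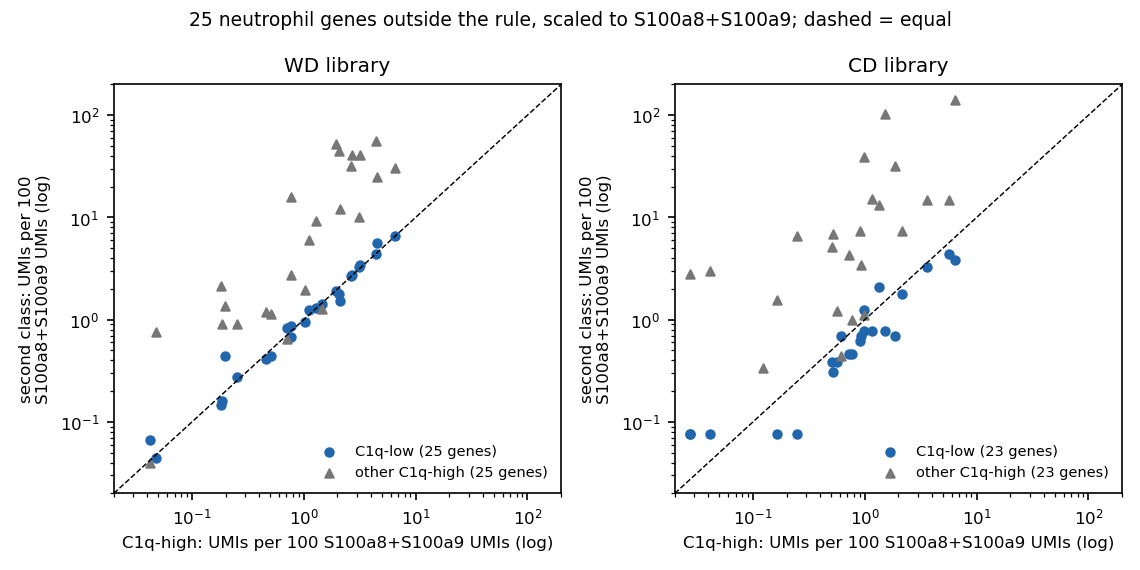
UMIs of each of the 25 neutrophil genes outside the rule per 100 UMIs of S100a8 and S100a9 in C1q-high members (horizontal, log axis) against C1q-low members (blue circles) and the other C1q-high barcodes (grey triangles) on the vertical log axis; the dashed line marks equal values. The C1q-low points of WD follow the line, with 23 of 25 genes within 1.5-fold, those of CD scatter more, and the triangles lie mostly above it.

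Scaled to C1q in the same way, the macrophage genes of C1q-high members were near those of the other C1q-high barcodes in WD, and more loosely in CD. The C1q genes also chose both classes, so this is a description. Per 100 UMIs of the C1q genes, Apoe had 127 in the members and 119 in the other C1q-high barcodes of WD, Pf4 22.2 and 22.4, Mrc1 26.1 and 23.7, and Csf1r 9.03 and 8.75. In CD, Apoe had 110.2 in the members and 110.6 in the other C1q-high barcodes, Csf1r 4.92 and 4.36, Pf4 31.1 and 21.7, and Mrc1 4.25 and 2.50. Cd74, the chaperone of MHC class II, had 99.8 in the members and 113 in the others of WD, and 97.7 and 102 in CD.

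The C1q-low class was not uniform. H2-Aa, H2-Ab1, H2-Eb1 and Cd74, which present antigen on MHC class II and which mature neutrophils barely express, made up at least 1% of UMIs in 14 of 86 WD and 5 of 9 CD C1q-low barcodes. This limit was chosen after the values had been seen. In WD, the MHC class II-rich barcodes had a median of 21241.5 UMIs and 4.17% mitochondrially encoded UMIs, against 4069 UMIs and 0.927% in the remaining 72. They held 295483 of the 638315 UMIs of the class. The 25 neutrophil genes made up a median of 0.695% in the MHC class II-rich barcodes and 2.58% in the others, but a barcode of the first kind held 124 UMIs of them and one of the second kind 106. Of the 25 genes, 23 could be compared and 23 were at least 2-fold lower in the MHC class II-rich barcodes, where 697 of 4139 genes (16.8%) were lower and 989 (23.9%) higher. All 6 genes of the Ccr2 and MHC class II list were higher, and the split used 4 of them, with a ratio of sums of 18.2. Cd209a had 497 CPM (420.3 to 585) in the MHC class II-rich barcodes and 5.83 CPM (0.706 to 21.1) in the others. Ccr2, a receptor of monocytes, had 230.1 and 8.75 CPM, and Flt3, a receptor of dendritic cells, 57.5 CPM and 0 UMIs. C1qa had 518 and 329.6 CPM, both far below the 3085 CPM of C1q-high members. Of the 149 UMIs of Cd209a in WD C1q-low, 147 lay in these barcodes, and against the 72 others its level in C1q-high members was higher, at 47.9 and 5.83 CPM. The cardiomyocyte genes were higher there as well, summing to 639.6 and 78.8 CPM, and depth and mitochondrial share moved with the split; their part in it was not tested.

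With the MHC class II-rich barcodes set aside, C1q-high members of WD were still at least 2-fold lower in 25 of 25 neutrophil genes outside the rule (10.7% of 10047 genes were lower). They were higher in 15 of 16 macrophage genes (30.9% were higher). The 4 CD barcodes that remained held 5836 UMIs in all, with S100a8 and S100a9 at 6.25 to 18.3% of UMIs, C1q at 0 and the 25 genes at 1.25 to 3.94%. The 5 MHC class II-rich CD barcodes held 21168 UMIs, with S100a8 and S100a9 at 0.450 to 6.43% and the 25 genes at 0.531 to 1.71%. Cd209a had 14 UMIs in the 5 and 0 in the 4.

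**Figure D5:**
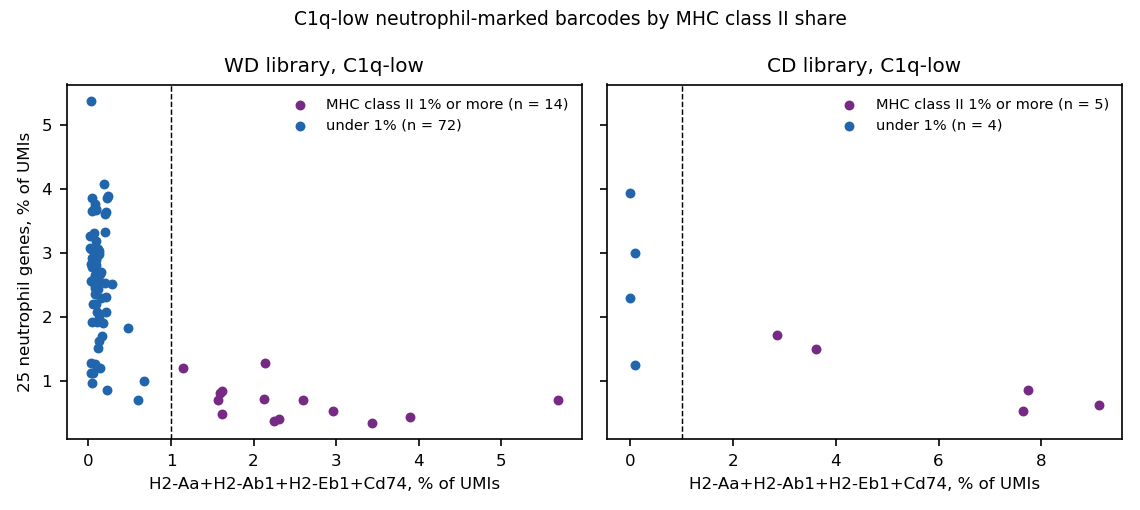
Share of UMIs from H2-Aa, H2-Ab1, H2-Eb1 and Cd74 (horizontal) against the share from the 25 neutrophil genes outside the rule (vertical) for each C1q-low barcode of the WD and CD libraries, 1 point per barcode, with barcodes at 1% MHC class II or more in purple (14 WD, 5 CD) and the others in blue (72 WD, 4 CD). The purple points have lower neutrophil shares than most of the blue ones.

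The HFD library held too few members for a comparison by gene. Its 8 C1q-high barcodes had 2254 to 9797 UMIs, 0.307 to 4.48% S100a8 and S100a9 and 0.932 to 2.22% C1q, and the 25 neutrophil genes made up 0.102 to 1.06%. All 8 lay above the 95th percentile of the other 1989 C1q-high HFD barcodes for these genes, and their summed level was 3439 CPM, against 263 CPM in the others, a ratio of 13.1 (10.9 to 15.6). The 16 macrophage genes had a ratio of sums of 1.06. The 1 C1q-low barcode had 1294 UMIs, 6.80% S100a8 and S100a9, 0.232% C1q and 22 UMIs of the 25 genes. S100a8 had 8154 CPM in these 8, 36434 CPM in the C1q-low barcode and 1.68 CPM in the other C1q-high barcodes, and gave 58.2% (53.9 to 62.4) of the S100 pair in the 8. Csf1r had 1094, 0 and 932 CPM, and Hdc 130.3, 775 and 0.153 CPM, where Hdc rests on 5, 1 and 1 UMIs. In the C1q-low barcode 3 UMIs equal 2326 CPM, so nothing can be read from its 0 for Csf1r. The median depth of the 8 was 3000 UMIs, close to the 2959 of the other C1q-high barcodes.

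Between diets, the C1q-low classes of WD and CD were set side by side gene by gene. This contrast carries the library, its depth, its barcode set, its software version and its share of MHC class II-rich barcodes along with the diet. Of 4249 genes, 876 (20.6%) were at least 2-fold higher in WD and 662 (15.6%) lower. In the other C1q-high barcodes of the same libraries the shares were 37.2% and 17.2% of 14274 genes, a gap of similar or larger extent outside the members. The first genes by interval bound were Gm42418, a transcript that overlaps ribosomal RNA, with 14089 CPM in WD and 0 UMIs in CD, Antxr2 with 1849 CPM and 0 UMIs, and Entpd1 with 1457 CPM and 0 UMIs. On the lower side stood Igkc, an immunoglobulin chain, with 3.13 CPM in WD and 1592 CPM in CD, Rps27rt, a ribosomal protein copy, with 28.2 and 1333 CPM, and Ear2 with 15.7 and 370.3 CPM. Gm42418 had 13046 CPM in WD and 79.8 CPM in CD in the other C1q-high barcodes, a gap in the same direction outside the members. The neutrophil genes outside the rule summed to 15372 CPM in WD and 11554 CPM in CD, with 8 of 23 genes at least 2-fold higher in WD and 3 lower. The Ccr2 and MHC class II list had 13105 CPM in WD and 57399 CPM in CD, and 14 of 86 WD and 5 of 9 CD barcodes were MHC class II-rich.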

How the data were processed

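Single-cell RNA libraries of sorted heart macrophages, 1 per diet, were analysed from the count matrices that the authors deposited. The values are UMI counts per gene and barcode, not normalized, and per the file headers they were written by Cell Ranger 7.2.0 for WD and by a software version 3.0.1, with no name given, for HFD and CD. GRCm38 and Seurat are named, without versions, in the submitters' processing notes. Whether intronic reads were counted is not stated there. Near-empty barcodes are listed for HFD and CD, and the smallest WD barcode has 504 UMIs.

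The 30406 gene IDs shared by the files were used. UMIs were summed over a class of barcodes, scaled to CPM, and expressed as ratios with exact conditional binomial intervals at 95%, over genes with at least 20 UMIs. These intervals and the Poisson and Clopper-Pearson ones cover counting error only. A gene was counted as higher or lower at 2-fold, and with 1 library per diet no p-value was computed. Ratios and intervals were tried on simulated counts. These held no differences between barcodes, so they cannot show that the intervals hold for the barcodes here. Summed UMIs per class ran between 1290 in HFD C1q-low and 54925564 in the other C1q-high barcodes of WD, so precision differs widely between classes.

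Members and gene lists were chosen with earlier results of these data known. The requirement that the interval lie beyond 1 and the split on MHC class II were added after the data had been seen. Genes named with values are those of the lists, and the first 10 in each direction among genes past 2-fold the same way in WD and CD (for WD over CD, in C1q-low), ranked by the interval bound nearest to 1. The 25 neutrophil genes include Mmp9, Mmp8, Hdc, G0s2, Clec4d, Clec4e, Trem1, Lcn2, Ly6g, Stfa2l1, Asprv1, Slpi, Wfdc21, Msrb1, Cd177, Padi4, Mxd1, Fpr1, Fpr2, Il1f9, Acod1, Pglyrp1, Grina and Sorl1, and the 16 macrophage genes include Csf1r, Mrc1, Cd68, Adgre1, Apoe, Fcgr1, Maf, Ms4a7, Mertk, Pf4, Cx3cr1, Gas6, Cbr2, Lgmn and Trem2. Some genes of the lists are not reported here by name. Mx1 was not used, which left 19 of 20 interferon-induced genes. Doublets were not removed in the reported values. As an alternative, the barcodes with most simulated pairs among their neighbours were taken out, at 0.8% per 1000 barcodes. Other alternatives were other limits of the rule, barcodes thinned to 1000 UMIs, equal weight per barcode, TMM factors (edgeR 4.0.16) and other minimum counts. Gene positions are those of the GENCODE mouse annotation on GRCm38. Python 3.11.15, numpy 2.4.6, scipy 1.17.1, pandas 2.3.3 and matplotlib 3.10.9 were used.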

Additional observations from a re-analysis of the deposited data

Results flagged for a closer look

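Among the genes of the lists with a UMI in every class compared, 5 went past 2-fold in opposite directions in the WD and CD libraries, for C1q-high over C1q-low or for C1q-high members over the other C1q-high barcodes. Over all genes there were 36 higher in WD and lower in CD and 2 the reverse in the first comparison, and 10 and 12 in the second. The difference between the libraries was not tested, since each diet has 1 library. Plac8, a monocyte gene, had a C1q-high over C1q-low ratio of 0.394 in WD and 2.23 in CD, with 69 UMIs in C1q-high and 1 UMI in C1q-low of CD. Cd79b, a B cell gene, had ratios of 2.03 in WD and 0.123 in CD, where 4 of the 5 UMIs in C1q-low came from 1 barcode. Between C1q-high members and the other C1q-high barcodes, Chil3, a chitinase-like protein, had ratios of 2.49 in WD and 0.315 in CD, and 1 barcode held 50.7% of the WD and 71.4% of the CD UMIs in the members. Ppbp, a platelet chemokine, had ratios of 3.97 in WD and 0.384 in CD, with 81 of 90 WD UMIs in 1 barcode. Lum, a fibroblast gene, had ratios of 0.343 in WD and 2.23 in CD, on 2 and 3 UMIs in the members.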

How the results depend on the processing

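Of 121 alternative values of shares and gene counts, 93 stayed within the spread or within 1.5 times. Neutrophil-marked barcodes were 4.06% of WD and 3.14% of CD with S100a8 and S100a9 at 0.6%, 3.70% of CD with 2 of the 4 further genes required, and 3.02% of CD with the rule applied at 1000 UMIs. The C1q-high share of members in WD was 59.8% with S100 at 0.6%, 43.0% with C1q at 0.6% and 58.4% at 1000 UMIs, and in HFD it was 100% with 2 of the 4 genes, with C1q at 0.15%, with 2000 UMIs or with 5% mitochondrial UMIs. Genes at 2-fold between C1q-high and C1q-low numbered 2816 in WD and 907 in CD. They became 758 in WD with C1q at 0.6%, 4968 and 1434 with equal weight per barcode, and 1805 and 272 with the interval beyond 1. In CD they were 591 at a minimum of 50 UMIs and 1874 with no minimum. Between members and the other C1q-high barcodes there were 1308 in WD and 1117 in CD, which became 848 and 742 at 50 UMIs, 2561 and 2037 with no minimum, and 682 and 463 with the interval beyond 1. Between WD and CD in C1q-low there were 1538, which became 2879 with C1q at 0.6%, 2773 with no minimum, 839 with the interval beyond 1 and 597 with MHC class II under 1%. The cause was not tested, except that higher minimums test fewer genes. Removing the barcodes with the highest doublet scores gave 2675 and 908, 1397 and 1109, and 1538 genes in the same order of comparisons.

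On the log2 scale, 2152 alternative gene ratios stayed within the interval of the main ratio and 669 moved outside it. A further 5, past 2-fold in the main values, turned round. In WD, C1q-high over C1q-low became -0.61 for Gbp5 and -2.94 for Chil3 with C1q at 0.6%, and 3.04 for Cd209a against C1q-low barcodes with MHC class II under 1%. Cd74 in CD became 5.45 against the same barcodes, and Ppbp in WD members over the other C1q-high barcodes became -1.32 with the rule at 1000 UMIs. Depth limits HFD C1q-low most, with 1290 UMIs in all, and then CD C1q-low, where 1 UMI is 37.0 CPM. No paired analysis was possible because each diet has 1 library. No replicate could be left out for the same reason.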
